A study of Mus musculus with 71 samples.

Results

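The histocompatibility and antigen presentation genes were taken as every probe set whose single platform gene symbol begins with H2-, together with the probe sets of B2m, Tap1, Tap2, Tapbp, Cd74, Ciita, Psmb8, Psmb9 and Psmb10. The rule found 63 of 45037 probe sets, which carry 32 of 18193 gene symbols, and it used names only and no measured value. All 63 matched a RefSeq gene. A further 15 probe sets carry several symbols of which at least 1 begins with H2-, and they were not used here. Of the 63, 20 lay above the median log2 level of all probe sets, 5.68, and 33 have names ending in _x_at, _s_at or _a_at, which can detect several transcripts. Whole-brain RNA was measured on 71 one-colour arrays. The mice were males of the inbred strains AKR/J, DBA/2J and C57BL/6J, 12 to 13 weeks old and bought from the Jackson Laboratory, and they were either deprived of sleep for 6 h or left in the home cage as controls. They were killed at ZT0, ZT6, ZT12 or ZT18, where ZT counts hours from light onset, which gave 24 groups with no transgene or drug in any of them. Each array held RNA pooled from 3 mice of 1 group, and each group had 3 arrays apart from sleep-deprived AKR/J mice at ZT18 with 2, for 35 arrays of sleep-deprived mice and 36 of controls. Values are log2 signals, on which 1 unit stands for a doubling.

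Class I molecules of the major histocompatibility complex carry peptides made by the proteasome to the cell surface. They are built of a heavy chain, encoded in the mouse by genes such as H2-K1 and H2-D1, and of beta-2 microglobulin, encoded by B2m. The peptides are cut in part by the immunoproteasome subunits Psmb8, Psmb9 and Psmb10, carried into the endoplasmic reticulum by the transporter Tap1 with Tap2, and loaded with the help of tapasin, the product of Tapbp. Class II molecules, built of alpha and beta chains such as those of H2-Aa with H2-Ab1 and H2-Ea with H2-Eb1, carry peptides from engulfed material, with the invariant chain Cd74, the loading factor H2-DM and the transcriptional activator Ciita, mainly in antigen-presenting cells. In healthy brain, class II molecules are found mainly on macrophages at its borders and class I molecules at low levels. The strains carry different haplotypes of the H2 region, k in AKR/J, d in DBA/2J and b in C57BL/6J, and class I heavy chains are among the most variable genes between haplotypes. An array probe made from the sequence of 1 haplotype can bind the RNA of another less well, so in everything that follows a strain difference in RNA level and a strain difference in hybridization cannot be told apart. The sequences of the array probes were not used here.

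The promoters of the class I heavy chain genes H2-K1 and H2-D1 and of their light chain are shown because the results turn on these 3 genes, and because 2 of them share long stretches. The sequences are those of RefSeq for GRCm38.p6, which is C57BL/6J, from 250 bases before to 50 after the listed start, written 5′ to 3′ along the gene. Capitals in H2-K1 and H2-D1 mark the runs of at least 20 identical bases that both windows hold, and capitals in B2m mark TGACG on either strand. TGACG is the core of the cAMP response element, which forms part of the conserved module of class I and class II promoters.
H2-K1, chr17:34000298-34000597, minus strand: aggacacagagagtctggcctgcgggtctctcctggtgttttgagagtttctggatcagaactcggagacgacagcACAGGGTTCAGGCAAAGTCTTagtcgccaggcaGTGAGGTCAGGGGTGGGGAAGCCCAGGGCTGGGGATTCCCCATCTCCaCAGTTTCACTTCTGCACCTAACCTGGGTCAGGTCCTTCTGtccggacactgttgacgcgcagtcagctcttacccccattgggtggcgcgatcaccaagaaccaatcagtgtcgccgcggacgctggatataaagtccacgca
H2-D1, chr17:35262844-35263143, plus strand: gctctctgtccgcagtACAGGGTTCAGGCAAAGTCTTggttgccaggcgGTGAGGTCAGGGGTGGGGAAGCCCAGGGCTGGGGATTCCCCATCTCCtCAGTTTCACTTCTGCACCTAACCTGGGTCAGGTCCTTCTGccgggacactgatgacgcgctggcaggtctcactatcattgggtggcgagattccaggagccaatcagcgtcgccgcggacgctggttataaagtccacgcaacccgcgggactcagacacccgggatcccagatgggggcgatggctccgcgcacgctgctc
B2m, chr2:122147437-122147736, plus strand: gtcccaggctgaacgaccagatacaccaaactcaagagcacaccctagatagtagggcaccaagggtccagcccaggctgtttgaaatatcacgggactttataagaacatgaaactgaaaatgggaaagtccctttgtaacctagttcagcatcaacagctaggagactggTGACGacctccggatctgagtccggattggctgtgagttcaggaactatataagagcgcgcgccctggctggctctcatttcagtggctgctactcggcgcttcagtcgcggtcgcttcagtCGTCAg

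H2-K1 and H2-D1 shared 3 such runs, of 21, 47 and 40 bases, which make up 108 of the 300 bases of each window. The runs of 47 and 40 bases were each found in 0.00913% of the 32851 promoter windows of the same length, all of them of H2-D1 or H2-K1, and the run of 21 bases in 0.0183%, with H2-Q4, H2-Q6 and H2-Q7 besides. The 5-letter TGACG, searched on both strands and chosen after the sequences had been seen, was in 20.8% of the windows. Those windows count every listed start of a gene, 2 of them for H2-K1. Of the 22 member genes with a window, each read on its first listed start only, 8 held it. These are B2m, H2-Aa, H2-D1, H2-K1, H2-M10.1, H2-M3, Psmb9 and Tap1. In H2-K1 and H2-D1 it lies outside the capitals, and the capitals that close the B2m window are its reverse complement. A match is a description of letters and not of binding, and the promoter sequences of AKR/J and DBA/2J were not analysed here.

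The tissue label was checked first. Markers of neurons averaged between 11.66 and 11.91 on the log2 scale in every array, while the measured genes of B and T cells averaged 6.062 for Cd3e, 4.826 for Cd79a, 4.048 for Cd79b, 4.041 for Ms4a1 and 3.857 for Cd2. Of these 5, Cd3e lay above the median of all probe sets and the others below it. A pair of DBA/2J arrays stood apart, as seen after the data were examined. They were picked as the 2 highest of all arrays in the mean of a list of 10 measured blood and lymphocyte genes. DBA/2J sleep-deprived ZT18 replicate 3 lay above all 22 other DBA/2J arrays on 25 of the 63 probe sets, which is 39.7% against 4.75% of all probe sets, and DBA/2J control ZT0 replicate 3 did so on 11, which is 17.5% against 10.9%. In the first of them Cd74, the invariant chain of class II, read 7.41 against 6.06 to 6.63 in the other DBA/2J arrays, B2m (1452428_a_at) read 10.91 against 10.19 to 10.54, and H2-Ea (1422892_s_at) read 5.42 against 4.03 to 4.73. H2-DMa, Tapbp, Psmb8, Psmb10 and H2-M3 did not lie above the other DBA/2J arrays there. The second was highest of the 12 DBA/2J control arrays on 13 of the 63 probe sets, and control ZT12 replicate 1 on as many. On the list that picked the 2 arrays, their means were 5.937 and 5.781 against at most 5.273 elsewhere. S100a8, a calcium-binding protein of neutrophils, read 9.116 and 8.877 in them against 4.732 to 6.071 in the other DBA/2J arrays. S100a9 read 9.003 and 8.645 against 4.498 to 5.834. Hba-a1, Alas2, Cd79a, Cd79b, Cd2 and Ms4a1 lay within the range of the other DBA/2J arrays in both. Ptprc lay above it in the first alone and Cd3e in the second alone. The interferon-induced list was highest in the same 2 arrays, at 6.158 and 6.055 against at most 5.998. The part these genes have in the members' levels was not tested, and each count that changes by over 1.5 times without the 2 arrays is given where it is reported.

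The strain comparison asks how the 3 inbred strains differ in undisturbed mice. The largest differences of the 63 probe sets were in the classical class I heavy chains, and the 9 probe sets named H2-D1 did not move together. H2-D1 probe sets with a lower signal in AKR/J came first. On 1425545_x_at the lowest, median and highest log2 signals of the 12 control arrays per strain were 5.79, 6.21 and 6.995 in AKR/J, 9.55, 9.71 and 9.80 in DBA/2J, and 9.33, 9.57 and 9.68 in C57BL/6J. The AKR/J arrays lay below all others by more than 2 units, and DBA/2J and C57BL/6J overlapped. AKR/J was 3.32 log2 units (SE 0.073) or 10.01-fold below C57BL/6J by limma with Benjamini-Hochberg adjustment (adjusted p = 7.27e-42) and 11.18-fold below DBA/2J (adjusted p = 7.66e-43), while DBA/2J and C57BL/6J differed by 0.16 (adjusted p = 0.117). On 1451784_x_at the corresponding signals were 7.35, 7.85 and 8.43 in AKR/J, 9.46, 9.63 and 9.72 in DBA/2J, and 9.21, 9.47 and 9.58 in C57BL/6J. AKR/J again lay apart from both other strains, 2.96-fold lower than C57BL/6J (adjusted p = 5.46e-25). The weaker 1451683_x_at read 3.87, 4.16 and 4.31 in AKR/J, 6.08, 6.34 and 6.44 in DBA/2J, and 5.77, 6.03 and 6.41 in C57BL/6J. That is a 3.814-fold lower signal in AKR/J than in C57BL/6J (adjusted p = 2.18e-32), with DBA/2J slightly above C57BL/6J by 0.27 (adjusted p = 0.00108). The fourth of this kind, 1426324_at, whose name carries no suffix for several transcripts, was 2.044-fold lower in AKR/J than in C57BL/6J (adjusted p = 3.43e-20). DBA/2J was above C57BL/6J there, with control means of 5.99 and 5.63, a call kept in all 82 alternatives (adjusted p up to 6.44e-05).

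A second group of H2-D1 probe sets was high in DBA/2J. On 1425614_x_at the control arrays read 4.15, 4.31 and 4.55 at the lowest, the median and the highest in AKR/J, 7.87, 8.15 and 8.38 in DBA/2J, and 3.80, 4.22 and 4.43 in C57BL/6J. DBA/2J lay above every array of the other strains, 3.96 log2 units (SE 0.062) or 15.57-fold above C57BL/6J (adjusted p = 2.63e-49), and AKR/J was 14.06-fold below DBA/2J (adjusted p = 2e-48). AKR/J and C57BL/6J overlapped there and differed by 0.15 (adjusted p = 0.08). On 1452544_x_at the same 3 signals were 4.98, 5.38 and 5.58 in AKR/J, 8.16, 8.41 and 8.63 in DBA/2J, and 4.99, 5.24 and 5.58 in C57BL/6J, so that DBA/2J stood 9.044-fold above C57BL/6J (adjusted p = 3.14e-45). The third, 1427651_x_at, read 4.25, 4.56 and 4.91 in AKR/J, 6.86, 7.12 and 7.505 in DBA/2J, and 4.00, 4.27 and 4.56 in C57BL/6J. DBA/2J was 7.191-fold above C57BL/6J here (adjusted p = 2.3e-41), and AKR/J was above C57BL/6J by 0.29 (adjusted p = 0.000393) with overlapping arrays.

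One H2-D1 probe set, 1450170_x_at, was high in AKR/J. It read 5.86, 6.55 and 6.72 in AKR/J, 3.64, 3.76 and 3.98 in DBA/2J, and 3.55, 3.71 and 3.84 in C57BL/6J. AKR/J lay above every array of both other strains, 2.80 log2 units (SE 0.066) or 6.945-fold above C57BL/6J (adjusted p = 1.62e-40) and 6.572-fold above DBA/2J (adjusted p = 7.43e-40). Probe set 1451934_at, the ninth, had medians between 3.71 and 3.84 in the 3 strains and no call in any pair.

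**Figure D1:**
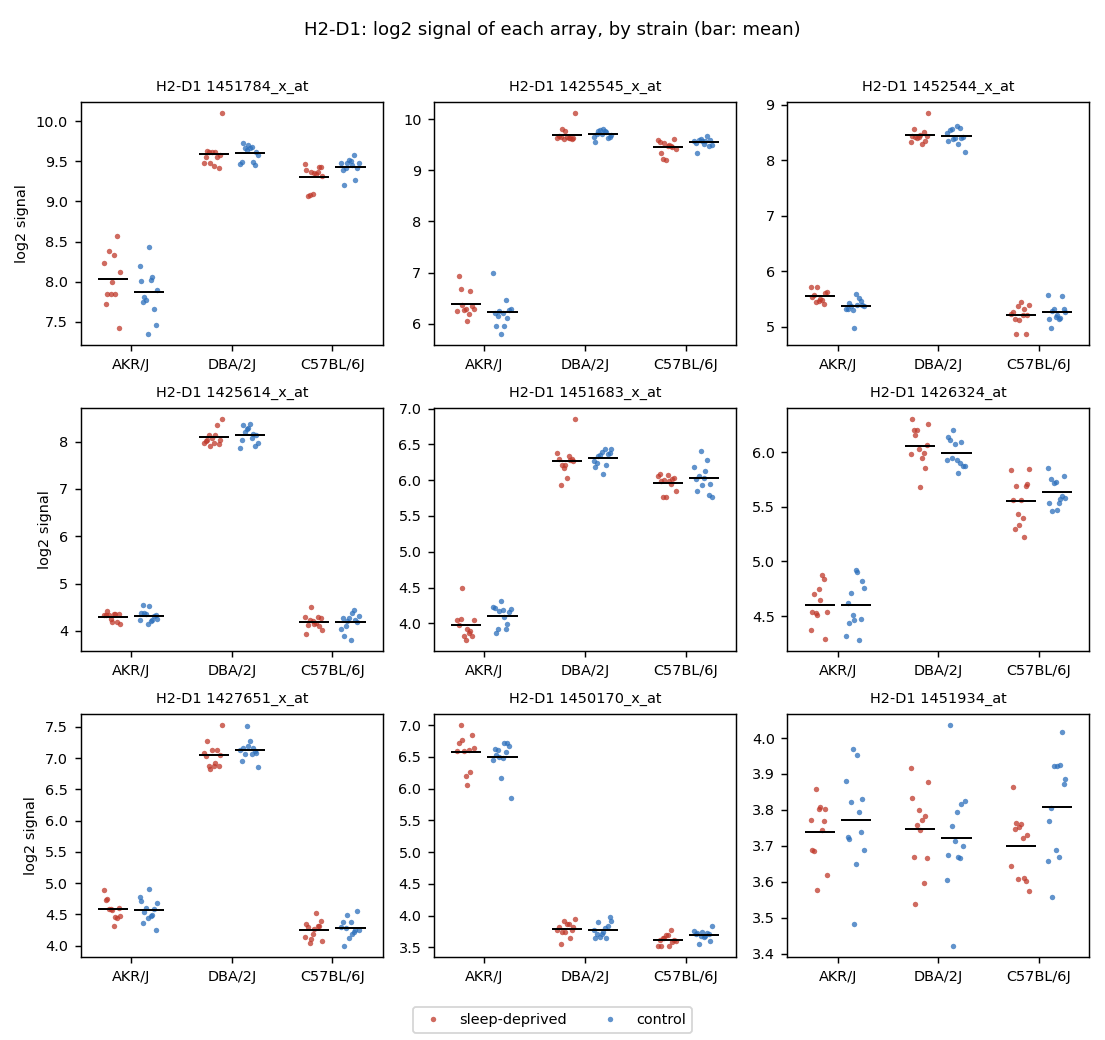
Log2 signal of each array on the 9 H2-D1 probe sets, by strain along the horizontal axis, with sleep-deprived mice in red left of controls in blue and the group mean as a bar. 4 probe sets are low in AKR/J, 3 are high in DBA/2J, 1 is high in AKR/J and 1 shows no separation, in both conditions alike; vertical scales differ between panels.

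H2-K1, the other classical class I heavy chain measured, had 4 probe sets, of which 3 were low in AKR/J. On 1425336_x_at the control arrays read 5.89, 6.35 and 6.45 at the lowest, the median and the highest in AKR/J, 8.26, 8.42 and 8.58 in DBA/2J, and 8.31, 8.49 and 8.74 in C57BL/6J. All AKR/J arrays lay below all others, 4.693-fold below C57BL/6J (adjusted p = 1.16e-36). On 1451931_x_at they read 6.09, 7.18 and 7.57 in AKR/J, 8.97, 9.07 and 9.20 in DBA/2J, and 8.70, 8.96 and 9.11 in C57BL/6J, and AKR/J was 3.599-fold below C57BL/6J (adjusted p = 6.67e-30). The AKR/J arrays spread over more than 1 log2 unit here, against less than 1 in each of the other strains. On 1427746_x_at AKR/J was 0.91 below C57BL/6J (SE 0.078, adjusted p = 7.12e-15), and DBA/2J was 0.23 above it (adjusted p = 0.0213), a call lost in 4 of 81 alternatives. The remaining one, 1450534_x_at, had medians of 5.06 in AKR/J, 5.04 in DBA/2J and 5.002 in C57BL/6J and no call.

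B2m, the light chain that the class I heavy chains share, differed far less and in another order. On 1452428_a_at the lowest, median and highest were 10.15, 10.24 and 10.33 in AKR/J, 10.19, 10.32 and 10.54 in DBA/2J, and 10.58, 10.65 and 10.83 in C57BL/6J. C57BL/6J lay above every array of the other strains, with AKR/J 0.43 below it (SE 0.043, adjusted p = 2.25e-12) and DBA/2J 0.33 below it (adjusted p = 8.54e-09). AKR/J and DBA/2J overlapped and differed by 0.10 (adjusted p = 0.0988). Probe set 1449289_a_at gave smaller differences of the same signs, -0.34 for AKR/J and -0.19 for DBA/2J against C57BL/6J. Between AKR/J and DBA/2J it gave -0.15 (adjusted p = 0.0366), a call lost in 10 of 82 alternatives (adjusted p up to 0.0926).

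Among the nonclassical class I genes, which are less variable than the classical ones, H2-T24 and H2-Bl showed the widest separation. H2-T24 read 5.07, 5.31 and 5.52 in AKR/J, 4.71, 5.03 and 5.32 in DBA/2J, and 6.07, 6.62 and 6.82 in C57BL/6J. C57BL/6J lay above all arrays of the other strains, with AKR/J 2.39-fold (adjusted p = 3.15e-23) and DBA/2J 2.957-fold below it (adjusted p = 1.08e-27), and AKR/J was 0.31 above DBA/2J (adjusted p = 0.000358). H2-Bl, listed by RefSeq as a transcribed pseudogene in its C57BL/6J assembly, read 5.16, 5.28 and 5.59 in AKR/J, 4.02, 4.26 and 4.49 in DBA/2J, and 4.34, 4.45 and 4.66 in C57BL/6J. AKR/J lay above all others, 1.814-fold above C57BL/6J (adjusted p = 4.65e-17) and 2.109-fold above DBA/2J (adjusted p = 3.79e-21). DBA/2J was 0.22 below C57BL/6J with overlapping arrays (adjusted p = 0.00825). H2-M3, which presents formylated peptides, was 0.22 lower in AKR/J than in C57BL/6J (adjusted p = 0.00133) and 0.34 lower than in DBA/2J (adjusted p = 1.4e-06). H2-Q2 was lower in AKR/J by 0.23 and in DBA/2J by 0.22 than in C57BL/6J, at medians of 3.18, 3.19 and 3.39 in AKR/J, DBA/2J and C57BL/6J. The H2-Q5 probe set 1450582_at, of a gene that RefSeq also lists as a transcribed pseudogene, had lowest, median and highest signals of 3.63, 3.97 and 4.23 in AKR/J, 3.52, 3.90 and 4.13 in DBA/2J, and 3.51, 3.59 and 3.75 in C57BL/6J. It was higher in AKR/J by 0.33 (adjusted p = 2.23e-05) and in DBA/2J by 0.24 (adjusted p = 0.00265), with overlapping arrays. H2-D4, H2-M9, H2-M10.1, H2-Q10, H2-T3 and H2-T18 had no call in any strain pair.

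Class II genes differed by less than 1 log2 unit between strains. H2-Ea, an alpha chain that RefSeq lists as a transcribed pseudogene in the C57BL/6J assembly, had its widest difference on 1422892_s_at, which read 3.45, 3.61 and 3.99 in AKR/J, 4.10, 4.32 and 4.73 in DBA/2J, and 3.48, 3.59 and 3.95 in C57BL/6J. DBA/2J lay above every array of the other strains, 0.70 above C57BL/6J (SE 0.078, adjusted p = 6e-11), and AKR/J and C57BL/6J differed by 0.01 (adjusted p = 0.945). Its brighter probe set 1422891_at read 6.94, 7.16 and 7.31 in AKR/J, 6.81, 6.99 and 7.20 in DBA/2J, and 6.78, 6.99 and 7.20 in C57BL/6J. AKR/J was highest there, by 0.16 over both C57BL/6J (adjusted p = 0.00897) and DBA/2J (adjusted p = 0.00833), with overlapping arrays. H2-Ea 1426202_at was 0.10 lower in DBA/2J than in C57BL/6J (adjusted p = 0.0462), a call lost in 22 of 82 alternatives (adjusted p up to 0.0983), among them leaving out the 2 DBA/2J arrays that stood apart (adjusted p = 0.074). H2-Aa, the alpha chain of the other class II molecule, read 4.82, 5.03 and 5.20 in AKR/J, 5.02, 5.22 and 5.50 in DBA/2J, and 5.37, 5.698 and 6.14 in C57BL/6J on 1435290_x_at. AKR/J lay wholly below C57BL/6J there, by 0.64 (adjusted p = 1.39e-10), and DBA/2J was 0.44 below it with overlapping arrays (adjusted p = 1.81e-06). On 1438858_x_at the H2-Aa medians were 4.91, 4.90 and 5.21 in AKR/J, DBA/2J and C57BL/6J, with AKR/J 0.31 below C57BL/6J and DBA/2J 0.23 below it. The sign turned on H2-Aa 1452431_s_at, with DBA/2J 0.28 above C57BL/6J (adjusted p = 0.00014) and 0.25 above AKR/J.

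The 3 probe sets of H2-Ab1, the beta chain partner of H2-Aa, moved together: DBA/2J was above C57BL/6J by 0.28, 0.20 and 0.33 on 1450648_s_at, 1451721_a_at and 1425477_x_at, and AKR/J was below DBA/2J by 0.48, 0.33 and 0.54. H2-Eb1, the beta chain partner of H2-Ea, had medians of 5.33 in AKR/J, 5.40 in DBA/2J and 5.64 in C57BL/6J, with AKR/J 0.33 and DBA/2J 0.27 below C57BL/6J (adjusted p = 4.37e-06 and 0.00013). H2-DMa, a chain of the class II loading factor, read 6.15, 6.48 and 6.70 in AKR/J, 6.58, 6.88 and 7.10 in DBA/2J, and 6.27, 6.495 and 6.63 in C57BL/6J on 1422527_at. DBA/2J was 0.39 above C57BL/6J (adjusted p = 1.09e-08), with overlap. Cd74 was lower in AKR/J by 0.20 than in C57BL/6J (adjusted p = 0.0313) and by 0.19 than in DBA/2J (adjusted p = 0.0468). The first call was lost in 9 of 82 alternatives (adjusted p up to 0.0977) and the second in 21 of 82 (up to 0.0921). Small calls were also made for H2-Oa and H2-Ob, chains of the inhibitor of H2-DM, and for 1 of the 3 Ciita probe sets, all under 0.2 in size. The H2-Oa call, between DBA/2J and C57BL/6J, was lost in 38 of 82 alternatives (adjusted p up to 0.127), 34 of them by leaving out 1 array. The Ciita 1447075_at call between AKR/J and C57BL/6J was lost in 20 of 82 (up to 0.14). H2-DMb2 and H2-Eb2 had no call.

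The genes of peptide cutting, transport and loading differed least. Psmb10 was above C57BL/6J by 0.13 in AKR/J (adjusted p = 0.002) and by 0.20 in DBA/2J (adjusted p = 2.87e-06), while Psmb8 and Psmb9 were not called in any pair. Tap1 1416016_at was 0.16 lower in AKR/J than in C57BL/6J (adjusted p = 0.0239), a call lost in 5 of 83 alternatives. Tap1 1449803_x_at, a dim probe set, read 3.54, 3.67 and 3.84 in AKR/J against 3.42, 3.54 and 3.64 in DBA/2J, a difference of 0.15 (adjusted p = 0.0067) with overlapping arrays. Tapbp 1421812_at was 0.17 lower in AKR/J than in C57BL/6J (adjusted p = 0.0252), a call lost in 9 of 83 alternatives. The other Tapbp probe set, 1450378_at, had control means of 6.62 in AKR/J and 6.56 in C57BL/6J, with no call. Tap2 was not called. H2-Ke6 bears an H2- symbol from its place in the region but encodes a hydroxysteroid dehydrogenase (Hsd17b8) and no antigen presentation protein. It read 7.02, 7.41 and 7.58 in AKR/J, 7.47, 7.66 and 7.81 in DBA/2J, and 6.92, 7.20 and 7.33 in C57BL/6J. DBA/2J lay above every C57BL/6J array, by 0.50 (adjusted p = 5.74e-13), and AKR/J was 0.24 above C57BL/6J (adjusted p = 9.11e-05).

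**Figure D2:**
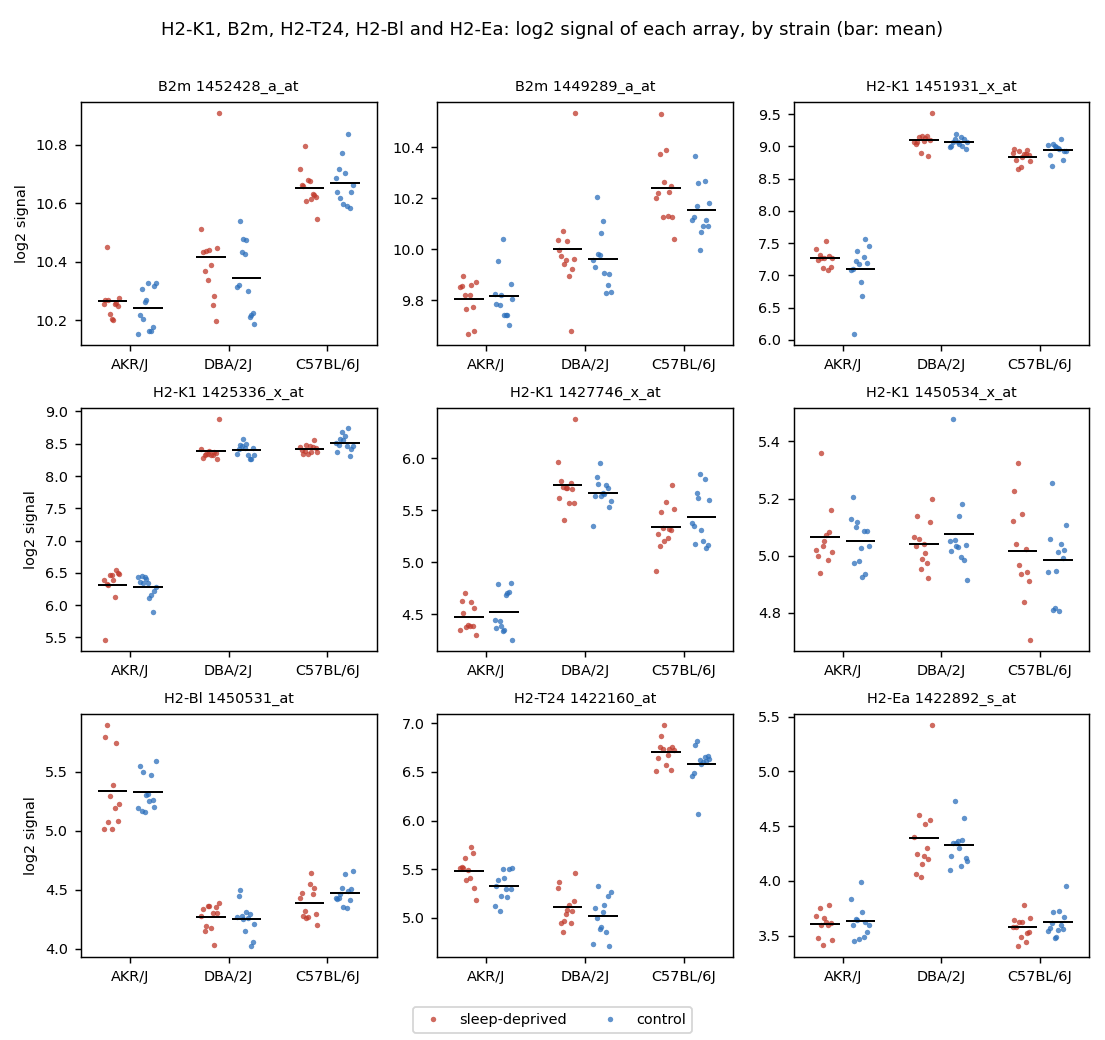
Log2 signal of each array on the probe sets of B2m, H2-K1, H2-T24, H2-Bl and H2-Ea (1422892_s_at), by strain along the horizontal axis, with sleep-deprived mice in red left of controls in blue and the group mean as a bar. 3 of 4 H2-K1 probe sets are low in AKR/J, B2m and H2-T24 are highest in C57BL/6J, H2-Bl is highest in AKR/J and H2-Ea in DBA/2J, and the highest DBA/2J point of sleep-deprived mice in each panel is ZT18 replicate 3.

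Counted over all 63 probe sets in controls, 29 passed the threshold of an adjusted p under 0.05 between AKR/J and C57BL/6J (9 higher and 20 lower in AKR/J), or 46% against 22.9% of all probe sets tested (13.1% higher and 9.74% lower). Between DBA/2J and C57BL/6J 26 passed (16 higher and 10 lower in DBA/2J), or 41.3% against 23.2% (13.6% and 9.55%). Between AKR/J and DBA/2J 25 passed (5 higher and 20 lower in AKR/J), or 39.7% against 17.3% (8.30% and 9.01%). The 3 strain pairs share arrays, so their counts are not independent, and strain and any difference of the strains' pools cannot be told apart. Differences of at least 1 log2 unit, counted whatever their adjusted p, were found on 8, 4 and 12 of the 63 in the same order of pairs. Over all probe sets the shares were 0.986%, 1.08% and 0.995%. The arrays of a pair did not overlap at all on 12, 7 and 14 of the 63, against 4.03%, 4.57% and 3.65% of all. The median absolute difference was 0.115, 0.111 and 0.0904 log2 units, against 0.06, 0.0585 and 0.0515 over all probe sets. In at least 1 pair 38 probe sets of 21 genes passed, which is 60.3% against 36.1%, and 25 probe sets passed in none. The share of members passing was smaller in each pair without the 33 that carry a suffix, with counts given in the closing section.

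**Figure D3:**
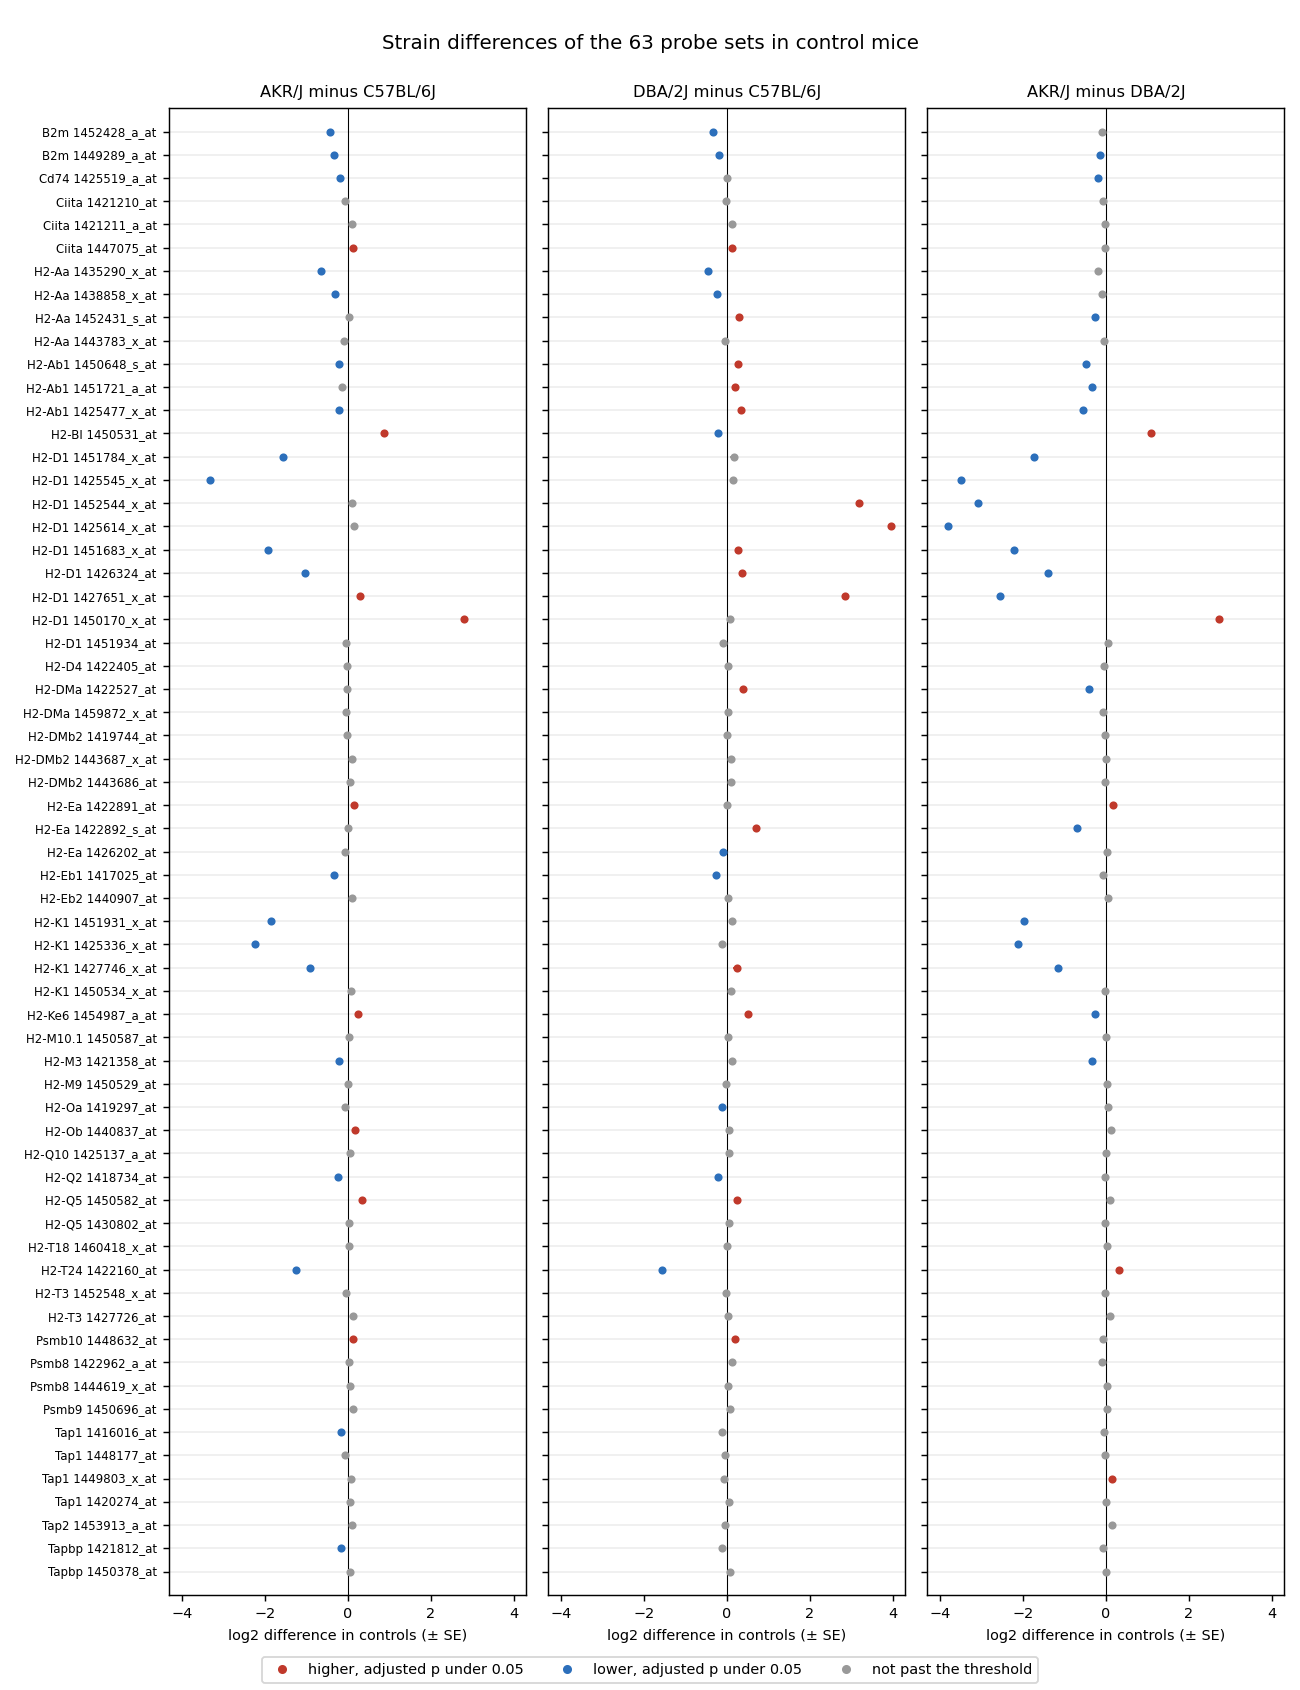
Strain differences in control mice of the 63 probe sets (log2 difference on the horizontal axis with bars of 1 SE, mostly smaller than the points), 1 panel for each strain pair. Red and blue points passed an adjusted p under 0.05 and are higher or lower in the strain named first, and grey points did not pass; H2-D1 points lie on both sides of 0 in the panels with AKR/J.

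The same strain differences were measured on the arrays of sleep-deprived mice, which share no array with the controls. There 30 probe sets passed between AKR/J and C57BL/6J, against a background of 24.8%, 27 between DBA/2J and C57BL/6J, against 25.5%, and 25 between AKR/J and DBA/2J, against 15.6%. Called in both conditions with the same sign were 25, 20 and 22, and none was called with opposite signs. These are 86.2%, 76.9% and 88% of the calls in controls and 83.3%, 74.1% and 88% of those in sleep-deprived mice, where all probe sets gave 67.9%, 76.6% and 68.1%, and 62.6%, 69.6% and 75.7%. H2-D1 1425545_x_at was 8.352-fold lower in sleep-deprived AKR/J than in sleep-deprived C57BL/6J mice, 1425614_x_at 14.92-fold higher in DBA/2J than in C57BL/6J, and 1450170_x_at 7.829-fold higher in AKR/J than in C57BL/6J. H2-K1 1425336_x_at was 4.271-fold lower in AKR/J than in C57BL/6J, and H2-T24 was 3.014-fold lower in DBA/2J than in C57BL/6J.

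**Figure D4:**
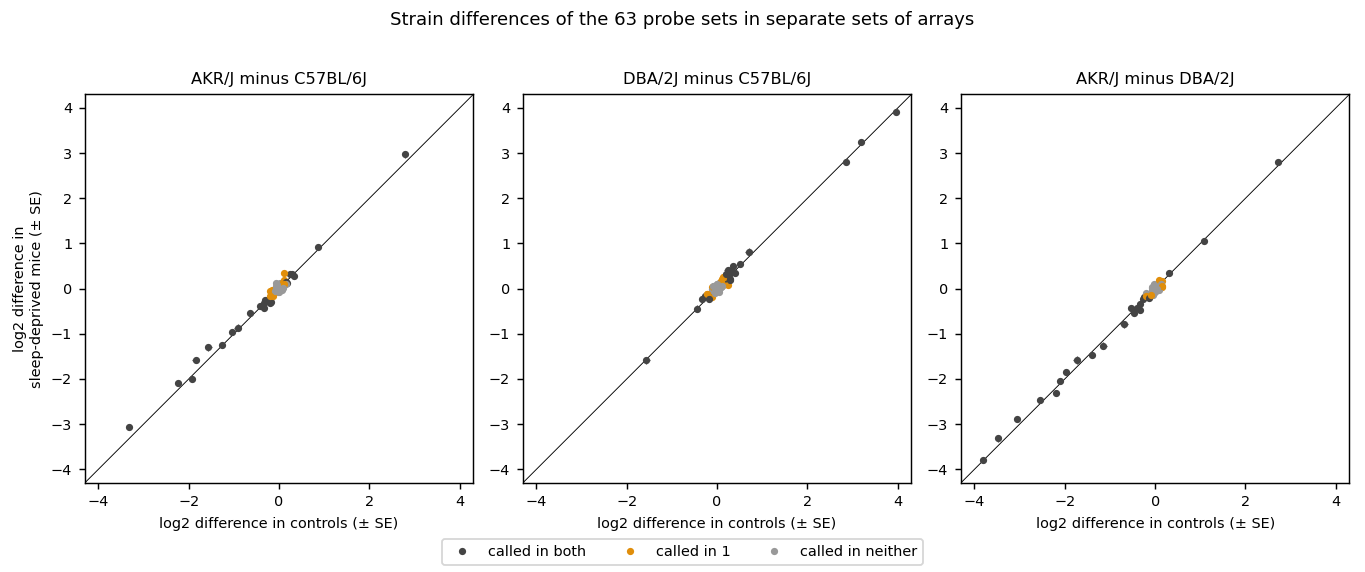
Log2 strain differences of the 63 probe sets in controls (horizontal axis) and in sleep-deprived mice (vertical axis), with bars of 1 SE and a line of equal values, 1 panel for each strain pair. Points past an adjusted p under 0.05 in both conditions are dark, in 1 condition orange and in neither grey; the large differences lie close to the line.

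Since 14 of the genes have 2 or more of these probe sets, 45 probe sets in all, each probe set was set against the mean of the other probe sets of its gene, and the deviation was tested over the strains in controls by limma's F test. It differed between strains for 28 of the 45, which is 62.2% against 28.0% of all 25762 probe sets that could be tested. The tests within a gene are not independent, since a probe set can be called when only its partners move. For a gene with 2 probe sets both tests are the same, as for B2m, H2-DMa and H2-Q5. The 28 belong to 9 genes: all 9 probe sets of H2-D1, all 4 of H2-K1, and probe sets of B2m, Ciita, H2-Aa, H2-DMa, H2-Ea, H2-Q5 and Tap1. The deviation ranged over a median of 0.234 log2 units between strains, against 0.102 for all probe sets. For H2-D1 1450170_x_at the deviation was 1.39 in AKR/J, -3.60 in DBA/2J and -2.32 in C57BL/6J, a range of 4.99 (adjusted p = 4.75e-50). For H2-D1 1425614_x_at it was -1.05 in AKR/J, 1.30 in DBA/2J and -1.79 in C57BL/6J, a range of 3.09. H2-K1 1450534_x_at, which itself did not differ between strains, deviated by -0.92 in AKR/J, -2.64 in DBA/2J and -2.65 in C57BL/6J (adjusted p = 1.79e-37), because the other 3 probe sets of the gene were lower in AKR/J. H2-Ab1, H2-DMb2, H2-T3, Psmb8 and Tapbp had no call. The call of Tap1 1416016_at was lost in 48 of 82 alternatives, that of Ciita 1421210_at in 18 of 82 and that of H2-Aa 1443783_x_at in 12 of 81. Probe sets of 1 gene were called in opposite directions for H2-D1 between AKR/J and C57BL/6J (1 of 14 genes, against 5.09% of all genes with several probe sets). Between DBA/2J and C57BL/6J this was so for H2-Aa and H2-Ea (2 of 14, against 5.06%), and between AKR/J and DBA/2J for H2-D1 and H2-Ea (2 of 14, against 3.82%). For H2-Ea between DBA/2J and C57BL/6J it rests on the call of 1426202_at, which several alternatives lost. Where probe sets of a gene disagree, no single strain difference can be given for that gene.

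Genes of other lists were read beside these strain differences, a gene with several probe sets being taken on its brightest. Against C57BL/6J, 13.1% of all probe sets were higher and 9.74% lower in AKR/J, and 13.6% and 9.55% in DBA/2J. Of 28 measured interferon-induced genes, none was higher and 11 were lower in AKR/J than in C57BL/6J, with a median of -0.0858 against 0.0244 over all probe sets. Trim30a was lower by 0.69, Igtp by 0.48, Ifitm3 by 0.40 and Iigp1 by 0.68. In DBA/2J 1 was higher and 5 were lower than in C57BL/6J, among them Xaf1 by 0.93 and Trim30a by 0.74. Per array, the mean of the interferon-induced list ran from 5.735 to 5.867 in AKR/J controls, 5.802 to 6.055 in DBA/2J controls and 5.912 to 5.998 in C57BL/6J controls. Of 13 microglia markers 5 were higher and 6 lower in AKR/J than in C57BL/6J, with the complement genes C1qc lower by 1.18 and C1qb by 1.03 and the receptor P2ry12 higher by 0.69, and in DBA/2J none was higher and 6 were lower. The mean of the microglia list ran from 7.297 to 7.457 in AKR/J controls, 7.195 to 7.451 in DBA/2J controls and 7.404 to 7.579 in C57BL/6J controls. Bulk RNA cannot tell fewer cells of a type from less RNA per cell, and the part these lists have in the strain differences of B2m and the class II genes was not tested. Of 20 partners of antigen processing, 6 were higher and none lower in AKR/J than in C57BL/6J, and in DBA/2J 8 were higher and 2 lower, with the constitutive proteasome subunit Psmb6 lower by 0.81 and the thiol reductase Ifi30 higher by 0.31. Counts in the remaining lists for AKR/J against C57BL/6J were 1 higher and 0 lower of 7 perivascular macrophage markers, 2 and 2 of 8 endothelial, 0 and 4 of 7 choroid plexus, 1 and 1 of 10 blood, and 0 and 0 of 7 neuron markers. For DBA/2J against C57BL/6J they were 2 higher and 1 lower, 0 and 0, 0 and 4, 0 and 0, and 0 and 1 in the same order of lists.

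Sleep deprivation is the comparison the series is about, and it moved few of these genes. Averaged over the 12 combinations of strain and time, 5 of the 63 probe sets passed, which is 7.94% against 17.3% of all probe sets, and at an unadjusted p under 0.05 there were 9. Of the 63, 43 lay at or below the median level. In a fit of the probe sets above it 4 of 20 passed, which is 20% against 32.9% of all probe sets in that fit. The 5 belong to 4 genes, with 4 lower and 1 higher in sleep-deprived mice against 9.00% and 8.31% of all probe sets, and all differences were at most 0.12 log2 units. The median absolute difference of the 63 was 0.0201, against 0.0303 over all probe sets.

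H2-DMa 1422527_at, the class II loading factor, read 6.16, 6.42 and 6.99 at the lowest, the median and the highest of the 35 arrays of sleep-deprived mice, against 6.15, 6.56 and 7.10 in the 36 control arrays. The groups overlapped almost fully and the difference was -0.12 (SE 0.030, adjusted p = 0.00302), higher in 3 of 12 strain and time combinations. Tapbp, which encodes tapasin, was lower on both of its probe sets. On 1450378_at it read 6.13, 6.51 and 6.80 in sleep-deprived mice against 6.30, 6.60 and 6.87 in controls, a difference of -0.11 (SE 0.035, adjusted p = 0.0188). On 1421812_at it read 7.58, 7.82 and 8.28 in sleep-deprived mice against 7.57, 7.92 and 8.40 in controls, a difference of -0.10 (SE 0.034, adjusted p = 0.0247), higher in 2 of 12 combinations. The ranges overlapped on both, and the call of 1421812_at was lost in 2 of 82 alternatives, with an adjusted p of up to 0.0513. H2-Ab1 1450648_s_at, the class II beta chain, read 4.08, 4.94 and 5.50 in sleep-deprived mice against 4.52, 4.93 and 5.49 in controls, a difference of -0.09 (SE 0.031, adjusted p = 0.0377). Its medians were nearly equal, and the call was lost in 22 of 80 alternatives, with an adjusted p of up to 0.0704, while its other 2 probe sets were not called. The 1 increase was H2-T24, a nonclassical class I gene, which read 4.86, 5.51 and 6.98 in sleep-deprived mice against 4.71, 5.32 and 6.82 in controls. Here too the ranges overlapped, and the difference was 0.12 (SE 0.039, adjusted p = 0.0211), higher in 10 of 12 combinations. H2-M3 was lower in all 12 combinations, by 0.07 on average, and did not pass (adjusted p = 0.112). With weights for arrays H2-M3 passed and Tapbp 1421812_at did not.

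**Figure D5:**
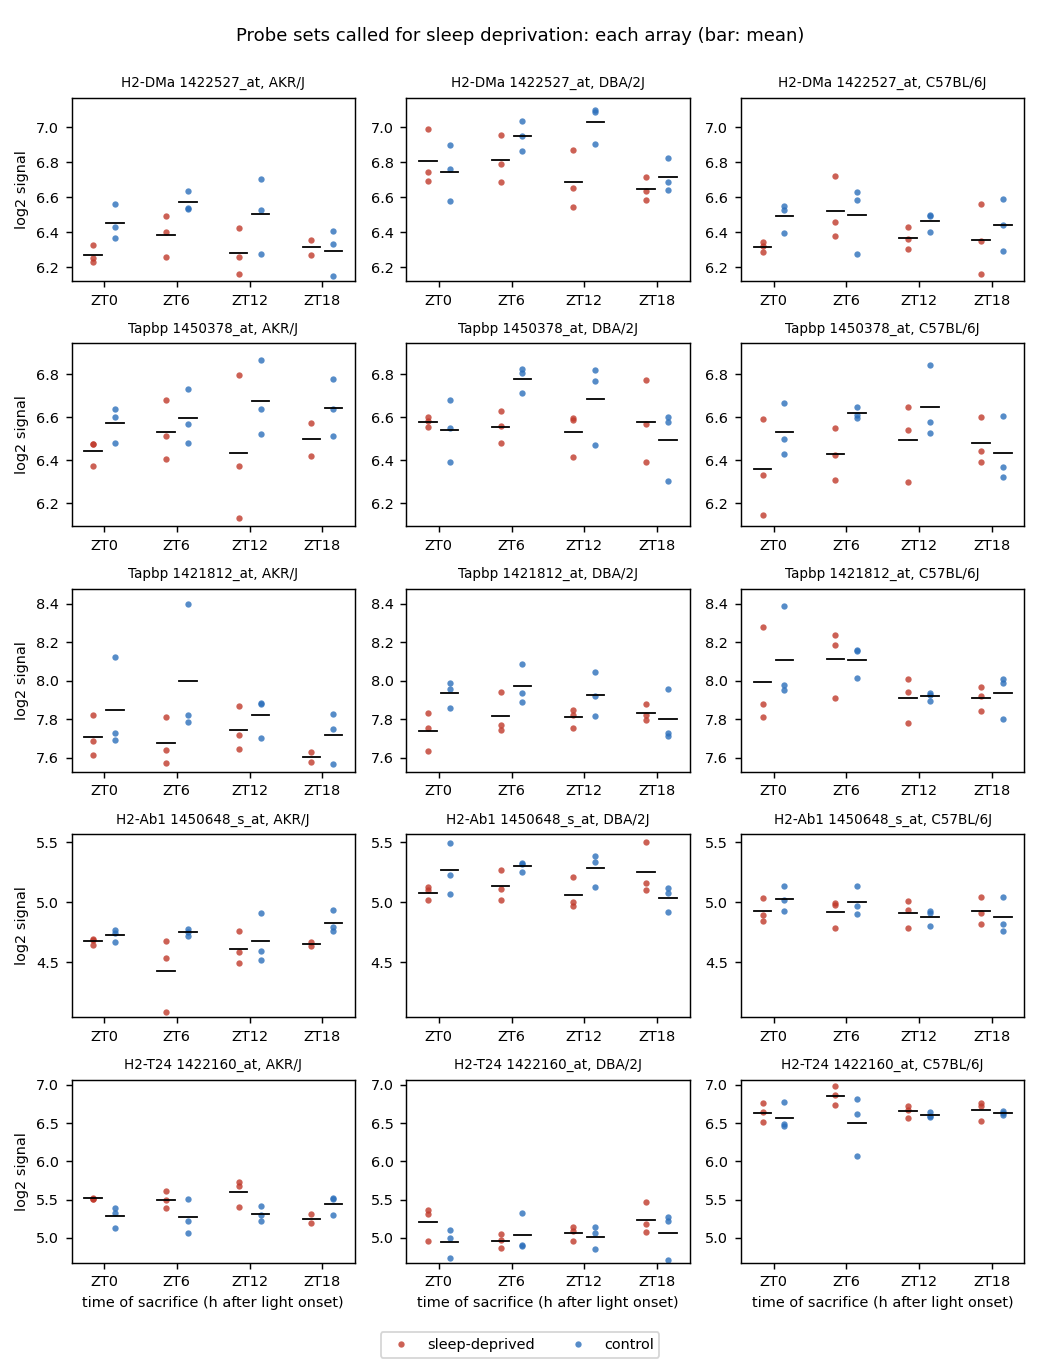
Log2 signal of each array on the 5 probe sets called for sleep deprivation over all strains and times (rows), by strain (columns) and time of sacrifice (horizontal axis), with sleep-deprived mice in red left of controls in blue and the group mean as a bar. The 2 conditions overlap in every row, and their average difference is at most 0.12; vertical scales differ between rows.

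Within single strains none of the 63 passed by limma, against 5.85% of all probe sets in AKR/J, 6.90% in DBA/2J and 6.45% in C57BL/6J, and at an unadjusted p under 0.05 there were 9, 4 and 5. H2-D1 1452544_x_at came closest in AKR/J, with a lowest, median and highest of 5.41, 5.53 and 5.73 in sleep-deprived mice against 4.98, 5.38 and 5.58 in controls, a difference of 0.19 (SE 0.062, adjusted p = 0.057). It was the 1 call in AKR/J once the 2 DBA/2J arrays that stood apart were left out, when H2-Aa 1452431_s_at also became the 1 call in DBA/2J. H2-DMa differed by -0.14 in AKR/J, -0.12 in DBA/2J and -0.08 in C57BL/6J, and H2-T24 by 0.14, 0.10 and 0.13 in the same order, none of these passing. The F test of whether the strains differ in their response called none of the 63 (background 0.0222%, 4 at an unadjusted p under 0.05).

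By time of sacrifice, no member passed at ZT0 (background 1.71%, 6 at an unadjusted p under 0.05) or ZT18 (background 0.0777%, 2 unadjusted). At ZT6 H2-Ab1 1450648_s_at passed, 1 of 63 against 10.4% of all, with a difference of -0.19 (SE 0.062, adjusted p = 0.037). Its 9 arrays per condition read 4.08, 4.98 and 5.27 at the lowest, the median and the highest in sleep-deprived mice against 4.72, 4.97 and 5.33 in controls, so the groups overlapped and the medians were alike. Without the 2 DBA/2J arrays 2 members passed at ZT6, the second being H2-Aa 1452431_s_at, and the call was lost without any 1 of 8 arrays named in the closing section (adjusted p up to 0.171). It was also lost in the fit of the groups compared alone, where Tapbp 1450378_at was the 1 member called. Among probe sets above the median level, where H2-Ab1 is not tested, it was Psmb8 1422962_a_at. At ZT12 H2-DMa 1422527_at passed, 1 of 63 against 9.75%, reading 6.16, 6.42 and 6.87 in sleep-deprived mice against 6.27, 6.53 and 7.10 in controls, with overlap and a difference of -0.22 (SE 0.059, adjusted p = 0.00856). The F test of whether the response differs between times called none (background 1.40%, 5 unadjusted).

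Time of day itself, tested over the 4 times by limma's F test, called none of the 63 in sleep-deprived mice (background 1.42%, 4 at an unadjusted p under 0.05) and none in controls (background 11.7%, 7 unadjusted). In controls 23 of the 71 fits that leave out 1 array gave 1 or 2 calls, and 5 other alternatives gave 1 to 3, so the count of 0 depends on these settings. The smallest adjusted p in controls was that of H2-DMa 1422527_at, 0.0537, with a range of 0.19 log2 units between the times. Psmb10 followed with a range of 0.12 (adjusted p = 0.0606) and Tap2 with 0.20 (adjusted p = 0.0768).

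The lists of other genes, chosen with earlier results of these data known, were also read beside sleep deprivation. The list counts stand beside 8.31% of all probe sets that rose and 9.00% that fell. Each gene is again taken on its brightest probe set, and in the fit of probe sets above the median level 32.9% of all passed. Of the 20 partners of antigen processing 6 rose and 3 fell, led by the endoplasmic reticulum chaperones Hspa5, higher by 0.67 (adjusted p = 3.37e-32), Calr, higher by 0.36, and Pdia3, higher by 0.32, which also serve the folding of many other proteins. Rfx5, a transcription factor of class I and class II promoters, was lower by 0.17 (adjusted p = 3.12e-09). Of 28 interferon-induced genes 3 rose and 3 fell, all by at most 0.13, with a list median of -6.31e-05 against -0.00238 over all probe sets. Of 13 microglia markers 3 rose and 1 fell, with C1qc higher by 0.13, Tmem119 by 0.12 and C1qa by 0.10 and P2ry12 lower by 0.16. Of 7 perivascular macrophage markers 3 rose and none fell: Cd163 by 0.23, F13a1 by 0.21 and Lyve1 by 0.20. These 3 had mean levels of 4.18, 5.643 and 4.144, below the median of all probe sets, 5.68. The brighter marker Mrc1, at 5.877, was not called. The median of the list was 0.0273, against -0.00238 over all probe sets. The mean of the perivascular macrophage list ran from 4.926 to 5.262 in sleep-deprived against 4.814 to 5.022 in control AKR/J arrays, from 4.782 to 5.159 against 4.762 to 5.041 in DBA/2J, and from 4.809 to 5.071 against 4.777 to 5.38 in C57BL/6J. These are cells that can hold class II molecules, of whose member probe sets 1 of 2 for H2-DMa and 1 of 3 for H2-Ab1 were lower and the others not called. The part of these cells in the members' values was not tested. Of 8 endothelial markers 1 rose and 3 fell, of 7 choroid plexus markers 1 rose, of 7 neuron markers 1 rose and 1 fell, and of 10 blood genes none passed.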

How the data were processed

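RNA was extracted from whole brains, pooled from 3 mice for each array and hybridised to 71 one-colour Affymetrix arrays, per the labels' protocols. The values that the authors deposited are log2 signals of probe sets computed by RMA, per the submitters' processing notes; its version is not given in the sources used. They ran from 2.69 to 14.8, with array medians of 5.65 to 5.71. Any pair of arrays correlated at 0.986 or more, and replicates of a group lay a root mean square of 0.145 to 0.239 apart, so none was a repeat deposit. No counts underlie the values, and precision is limited by how many arrays there are. The design names 9 mice in each group, 216 in all, so that replicates hold different animals and the tests rest on the spread among pools.

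Of 45101 probe sets, 64 array controls were left out. Names came from the platform annotation, which gives 1 symbol to 34945, several to 932 and none here to 9160, matched to RefSeq (GRCm38.p6). Group means of the 24 groups were modelled in 1 linear fit over all arrays by limma (version 3.58.1, under R 4.3.3, tables read by the package data.table, 1.17.8), with empirical Bayes moderation and 47 residual degrees of freedom. P-values were two-sided and adjusted by Benjamini-Hochberg over all 45037 probe sets, and called means an adjusted p under 0.05. Sleep deprivation was the mean difference within strain and time, and strain differences were averaged over times. The fits were tested on simulated data.

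Named with full values are the 5 largest called differences each way in each strain pair, the members called for sleep deprivation over all strains and times, and genes with opposite calls; each other list names up to 4 called genes by smallest p. Members, lists and tests were chosen with earlier results of these data known. Alternatives were quantile normalization, trended and robust moderation, weights for arrays, a block for replicate number, a block for 6 arrays lower on spike-in controls, fits of the compared groups alone, a filter on level, removal of probe sets with a suffix, a minimum size, leaving out each array, and, chosen after seeing the data, leaving out 2 DBA/2J arrays.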

Additional observations from a re-analysis of the deposited data

How the results depend on the processing

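No result changed its direction under any alternative. Counts of members called moved by over 1.5 times as follows. With a minimum size of 0.25 log2 units, 0 passed for sleep deprivation over all strains and times, 0 at ZT6 and 0 at ZT12, and in controls 17 passed between AKR/J and C57BL/6J and 15 between DBA/2J and C57BL/6J (16 in sleep-deprived mice). With the 20 members above the median level, which leaves fewer to test, 14, 7 and 13 passed in controls for AKR/J against C57BL/6J, DBA/2J against C57BL/6J and AKR/J against DBA/2J, 15, 12 and 12 in sleep-deprived mice, 1 for sleep deprivation in AKR/J, 2 at ZT12, 3 for time of day in controls, and 7 of 9 in the test of disagreement between probe sets. With the 30 members without a suffix 13, 9 and 6 passed in controls, 11, 8 and 6 in sleep-deprived mice, 0 at ZT6 and 7 of 15 for disagreement. Shares of all probe sets under the filters on level and suffix are not given here for the strain pairs. In the unfiltered fit these shares were 22.9%, 23.2% and 17.3% in controls. Trended and robust eBayes gave 1 call for sleep deprivation in AKR/J and 1 for time of day in controls. Array weights gave 1 in AKR/J, 3 at ZT6, 2 at ZT12 and 1 for time of day in sleep-deprived mice. Fits of the compared groups alone gave 1 in AKR/J and 2 for time of day in controls. The block for spike-in signal gave 2 at ZT6 and 1 for time of day in controls, and quantile normalization 1 for time of day in controls. Leaving out the 2 DBA/2J arrays that stood apart, a choice made after seeing the data, gave 1 in AKR/J, 1 in DBA/2J and 2 at ZT6. The causes of these changes were not tested beyond the smaller number of probe sets stated.

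With each array left out in turn, sleep deprivation called 4 to 6 over all strains and times, 0 to 2 in AKR/J, 0 to 1 in DBA/2J, 0 to 1 in C57BL/6J, 0 to 0 at ZT0, 0 to 2 at ZT6, 1 to 2 at ZT12 and 0 to 0 at ZT18. Strain pairs called 26 to 30, 24 to 27 and 23 to 27 in controls and 26 to 31, 25 to 29 and 22 to 26 in sleep-deprived mice. Time of day called 0 to 2 in controls and 0 to 1 in sleep-deprived mice, strain by sleep deprivation 0 to 0, time by sleep deprivation 0 to 1, and disagreement 25 to 30. Replicate numbers stand in brackets. The count was 2 for sleep deprivation at ZT12 without any 1 of AKR/J sleep-deprived ZT12 (3), DBA/2J control ZT12 (2). The count was 0 for sleep deprivation at ZT6 without any 1 of AKR/J control ZT6 (1), AKR/J sleep-deprived ZT6 (3), C57BL/6J control ZT6 (1), C57BL/6J sleep-deprived ZT6 (2), DBA/2J control ZT6 (1, 3), DBA/2J sleep-deprived ZT6 (2, 3). The count was 2 for sleep deprivation at ZT6 without any 1 of AKR/J sleep-deprived ZT6 (1), C57BL/6J control ZT6 (2), C57BL/6J sleep-deprived ZT6 (1, 3), DBA/2J sleep-deprived ZT6 (1), ZT18 (3). The count was 1 for sleep deprivation in AKR/J without any 1 of AKR/J control ZT0 (1), ZT12 (1, 3), AKR/J sleep-deprived ZT6 (1), ZT12 (3), C57BL/6J control ZT0 (1, 3), C57BL/6J sleep-deprived ZT6 (1, 2), ZT18 (1, 3), DBA/2J sleep-deprived ZT18 (3). The count was 2 for sleep deprivation in AKR/J without AKR/J control ZT6 (1). For sleep deprivation in C57BL/6J it was 1 without any 1 of C57BL/6J control ZT18 (2), C57BL/6J sleep-deprived ZT12 (1). For sleep deprivation in DBA/2J it was 1 without DBA/2J sleep-deprived ZT18 (3). For time by sleep deprivation it was 1 without DBA/2J sleep-deprived ZT18 (1). For time of day in controls it was 1 without any 1 of AKR/J control ZT0 (1, 2, 3), ZT6 (1), ZT18 (1, 2), AKR/J sleep-deprived ZT0 (2), C57BL/6J control ZT0 (2), ZT6 (2), ZT18 (3), C57BL/6J sleep-deprived ZT6 (1, 3), ZT12 (3), ZT18 (2, 3), DBA/2J control ZT0 (1), ZT12 (2), ZT18 (2, 3), DBA/2J sleep-deprived ZT0 (3), ZT12 (2). For time of day in controls it was 2 without any 1 of AKR/J control ZT12 (3), DBA/2J control ZT6 (3). For time of day in sleep-deprived mice it was 1 without any 1 of AKR/J sleep-deprived ZT0 (1), DBA/2J sleep-deprived ZT18 (1).

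Replicate numbers did not pair the arrays: deviations from group means correlated at a mean of 0.00839 between groups for the same number and -0.00417 for different numbers, and 27 of 71 arrays matched best with their own number. With the replicate block 5 were called for sleep deprivation over all strains and times, 29, 26 and 25 for the strain pairs in controls, 27, 27 and 25 in sleep-deprived mice, and 28 for disagreement. Of the 63 members 43 lay at or below the median level of all probe sets, and pools of 3 mice hide the spread between animals.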
